A study of Mus musculus with 2 samples.

Results

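The genes of the liver sinusoidal endothelium and of the Wnt signals it releases were followed across the liver lobule in 1 section of an AEG-1-WT mouse and 1 section of an AEG-1-C75S mouse. The 10 genes were chosen by name and are, out of 19465 in the tables, the scavenger and lectin receptors Stab1, Stab2, Clec4g, Lyve1 and Fcgr2b, the endothelial genes Pecam1 and Kdr, and the secreted signals Rspo3, Wnt2 and Wnt9b. All 10 were found in the tables under their own symbols. AEG-1-C75S mice carry a CRISPR/Cas9 knock-in that replaces the cysteine 75 of AEG-1, which is palmitoylated, with serine in every cell of the body, endothelium included, and AEG-1-WT mice carry the unedited gene; they are called the knock-in and the wild type here. Both animals were naive females of 8 weeks from crosses of heterozygotes, and 1 section of 5 μm per animal was taken from the same lobe. Messenger RNA was counted by 10x Visium on formalin-fixed tissue, in which ligated probe pairs are captured on barcoded spots and counted by unique molecular identifiers (UMIs). A spot sums all cells that lie on it, so endothelial transcripts were measured together with those of the hepatocytes around them, and fewer endothelial cells and less RNA per cell cannot be told apart.

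Liver sinusoidal endothelial cells line the capillaries of the lobule without a continuous basement membrane and clear waste molecules and immune complexes from the blood. Those near the central vein, with the endothelium of the vein itself, release Wnt2, Wnt9b and R-spondin 3. Wnt ligands bind Frizzled and LRP receptors on neighboring hepatocytes and stabilize beta-catenin, R-spondin 3 binds LGR receptors and takes the ubiquitin ligases ZNRF3 and RNF43 off those receptors, and the signal keeps up the gene expression of pericentral hepatocytes.

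To give the place of the 3 signals in the mouse genome (GRCm38, the assembly of mm10, RefSeq), Wnt2 lies at chr6:17985474-18032772, Wnt9b at chr11:103727362-103775272 and Rspo3 at chr10:29453106-29535867, all on the minus strand. Promoter sequences from RefSeq were at hand for 7 of the 10 genes, all but Rspo3, Lyve1 and Pecam1. They are shown for Wnt2 and Wnt9b, the Wnt ligands of the set, both highest at the pericentral end of the lobule in both sections. The stretches below lie before the transcription start that the table uses and are covered by no annotated exon. They are chr6:18030586-18030695 for Wnt2 and chr11:103749822-103750071 for Wnt9b, both read 5′ to 3′ on the minus strand. There are no capitals because no searched motif matched. Both stretches lie inside the gene spans given above, so the start used is an internal one and not the outermost of the gene. For Wnt2 the bases next to that start, which an annotated exon covers, are left out.
Wnt2: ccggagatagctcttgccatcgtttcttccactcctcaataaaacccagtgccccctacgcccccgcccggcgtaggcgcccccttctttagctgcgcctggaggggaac
Wnt9b: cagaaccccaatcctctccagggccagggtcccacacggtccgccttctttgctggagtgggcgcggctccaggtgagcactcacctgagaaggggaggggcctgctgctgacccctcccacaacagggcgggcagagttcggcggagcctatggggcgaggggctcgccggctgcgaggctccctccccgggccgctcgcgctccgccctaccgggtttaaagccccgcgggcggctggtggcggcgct
Over the 250 bases before the start, on both strands, the TCF/LEF motif (CTTTGAT or CTTTGAA) and the GATA motif (AGATAA) had no match in any of the 7 promoters, while 7.48% and 9.99% of the 32851 promoters in the table held them. The ETS motif (CCGGAA, 3952 promoters) matched in Kdr alone and the TATA box (TATAAA, 4063 promoters) in Clec4g alone. Wnt9b had 72.0% G and C in this window and Wnt2 63.6%, against a median of 52.4% over all promoters.

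After spots with more than 50000 UMIs were left out, 2309 spots with 42246988 UMIs remained in the wild type and 2163 spots with 41674347 UMIs in the knock-in. The median depth was 16830 UMIs per spot in the wild type and 18808 in the knock-in, and 1896 spot barcodes occurred in both sections, since the capture areas share a layout of positions. Levels are given as UMIs per 1000000 UMIs of the same spots (CPM), and all intervals are exact 95% intervals for counting error alone. Because each genotype is 1 animal, nothing was tested between the genotypes, and every ratio compares these 2 sections.

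The sinusoidal genes stood at nearly the same level in both sections. Stab1, a scavenger receptor that also marks some macrophages, had 4448 UMIs in the wild type and 4021 in the knock-in, or 105 and 96.5 CPM, a log2 ratio of the knock-in over the wild type of -0.13 (-0.19 to -0.06). Stab2, the receptor that clears hyaluronan, went the other way, with 3413 and 3666 UMIs and a log2 ratio of 0.12 (0.06 to 0.19). Clec4g, a C-type lectin of sinusoidal endothelium, had 8940 and 9174 UMIs and a log2 ratio of 0.06 (0.01 to 0.10), which became -0.022 with every spot thinned to 3000 UMIs. These were the 3 genes of the 10 whose interval left out 0, and each differed by less than 1.2-fold. Over the 12004 genes with at least 50 UMIs, the interval left out 0 in 46.0%.

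Fcgr2b, an inhibitory Fc receptor through which these cells take up immune complexes, had 3888 and 3974 UMIs (log2 ratio 0.05, -0.01 to 0.12). Kdr, the VEGF receptor that keeps endothelium alive, had 4004 and 3938 UMIs, and Pecam1, the adhesion molecule CD31, had 749 and 800. Their log2 ratios were 0.00 (-0.07 to 0.06) and 0.11 (-0.03 to 0.26). Lyve1, a hyaluronan receptor of sinusoidal and lymphatic endothelium, was sparse, with 96 UMIs in the wild type and 69 in the knock-in and no more than 2 UMIs on any spot. It was the 1 gene of the 10 past 1.2-fold between the sections, at -0.46 (-0.92 to 0.00), where 28.4% of all genes were past that fold, 9.66% with the higher and 18.7% with the lower level in the knock-in. With every spot thinned to 3000 UMIs, 3 of the 10 were past 1.2-fold, all lower in the knock-in (Lyve1, Wnt2 and Wnt9b). The share of all genes past the fold was not computed at that depth.

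At full depth the secreted signals also differed by less than 1.2-fold. Rspo3 had 763 UMIs in the wild type and 816 in the knock-in (log2 ratio 0.12, -0.03 to 0.26). Wnt2 had 563 and 517 UMIs (-0.10, -0.28 to 0.07), and Wnt9b 34 and 30 UMIs on 31 and 28 spots (-0.16, -0.92 to 0.59). In the 2 sections, 18.1 and 19.6 CPM of Rspo3 and 13.3 and 12.4 CPM of Wnt2 were counted. The interval of Wnt9b ran from lower to higher in the knock-in, and no difference was detectable at this depth. With every spot thinned to 3000 UMIs, the log2 ratios were 0.18 for Rspo3, -0.32 for Wnt2 and -0.64 for Wnt9b.

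**Figure D1:**
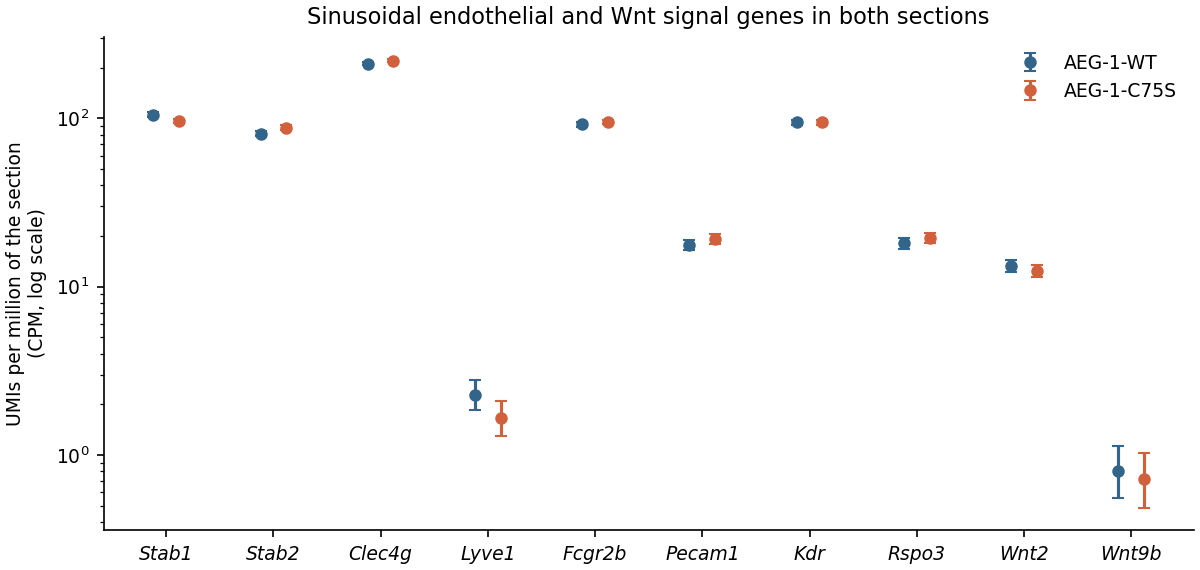
Level of each gene in the AEG-1-WT and AEG-1-C75S section, as UMIs per 1000000 UMIs of the section on a log scale, with exact 95% Poisson intervals for counting error. The paired points lie within 1.2-fold for 9 genes, from Clec4g at 212 and 220.1 CPM to Wnt9b at 0.80 and 0.72, and Lyve1 lies further apart at 2.27 and 1.66, and levels of different genes are not comparable because each has its own probes.

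To follow the genes along the lobule, the spots of each section were put in order of the ratio (Cyp2f2 + 1)/(Cyp2e1 + 1) and divided into 5 zones of equal spot number, from zone 1, the most periportal, to zone 5, the most pericentral. Both are hepatocyte genes, so none of the 10 genes helped to order the spots. Cyp2f2 fell from 2444 to 369.7 CPM between zone 1 and zone 5 in the wild type and from 2773 to 569 in the knock-in, and Cyp2e1 rose from 2154 to 13180 and from 2300.03 to 12018. A zone held 461 or 462 spots in the wild type and 432 or 433 in the knock-in. The median gene had a log2 ratio of zone 5 over zone 1 of 0.11 in the wild type and 0.09 in the knock-in, against which the ratios of single genes can be read.

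All 3 secreted signals were highest in the most pericentral zone of both sections. Rspo3 stood at 9.17, 10.96, 18.0, 24.1 and 28.1 CPM from zone 1 to zone 5 in the wild type and at 7.85, 14.7, 19.1, 23.9 and 32.1 CPM in the knock-in. It climbed at every step in both sections, and the log2 ratio of zone 5 over zone 1 was 1.62 (1.23 to 2.02) in the wild type and 2.03 (1.63 to 2.45) in the knock-in, or 3.06-fold and 4.09-fold. Wnt2 stood at 5.91, 9.34, 12.7, 16.9 and 21.8 CPM in the wild type and at 7.85, 8.21, 12.5, 14.9 and 18.6 CPM in the knock-in. It climbed at every step as well, with a log2 ratio of 1.88 (1.41 to 2.38) in the wild type and 1.25 (0.82 to 1.69) in the knock-in. Rspo3 and Wnt2 were the 2 genes of the 10 that rose at every step in both sections, which 3.12% of all genes did.

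Wnt9b was counted mostly on the pericentral side. It had 1, 1, 5, 13 and 14 UMIs from zone 1 to zone 5 in the wild type and 1, 4, 2, 11 and 12 in the knock-in. The log2 ratio of zone 5 over zone 1 was 3.81 with an interval from 1.09 to 9.21 in the wild type and 3.52 with one from 0.77 to 8.94 in the knock-in. A single UMI in zone 1 sets these ratios in each section.

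Rspo3 was steeper and Wnt2 shallower in the knock-in, and in both cases the intervals of the 2 sections overlapped. With every spot thinned to 3000 UMIs the order turned for Rspo3, with 1.97 in the wild type and 1.62 in the knock-in. For Wnt2 the values were 1.05 and 0.94. For these and all other thinned gradients, the zones were set anew from the thinned counts of Cyp2f2 and Cyp2e1, so spots could change zone. No interval was computed for the thinned gradients. Within single zones, Wnt2 had a log2 ratio of the knock-in over the wild type of 0.41 (-0.16 to 0.99) in zone 1 and -0.23 (-0.55 to 0.09) in zone 5, and Rspo3 of -0.23 (-0.73 to 0.28) and 0.19 (-0.07 to 0.46). These intervals all reach 0, and the difference between the gradients was not tested. Over all 10 genes, 2, 2, 2, 2 and 3 were past 1.2-fold between the sections in zones 1 to 5. Of all genes with at least 50 UMIs in the zone, 33.0%, 35.2%, 33.6%, 32.9% and 32.0% were. Lyve1 and Wnt9b, which had fewer UMIs than that in every zone, are counted among these 11. Of the 11, 1 had an interval without 0, Rspo3 in zone 2 at 0.43. The share of all genes with such an interval within a zone was not computed.

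The scavenger receptors were lowest at the portal end and leveled off toward the central vein. Stab2 stood at 58.7, 76.1, 83.5, 91.8 and 92.8 CPM from zone 1 to zone 5 in the wild type and at 69.1, 86.5, 97.2, 94.2 and 92.4 CPM in the knock-in. Its log2 ratio of zone 5 over zone 1 was 0.66 (0.49 to 0.83) in the wild type and 0.42 (0.26 to 0.58) in the knock-in. Stab1 peaked in zone 4, at 120 CPM in the wild type and 109 in the knock-in, from 78.0 and 76.2 CPM in zone 1, and had a log2 ratio of zone 5 over zone 1 of 0.51 (0.36 to 0.66) and 0.40 (0.25 to 0.55). Lyve1 had 12 UMIs in zone 1 and 22 in zone 5 of the wild type, and 8 and 19 in the knock-in, and both intervals, -0.20 to 2.03 and -0.07 to 2.59, reached below 0.

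Clec4g was the 1 gene of the 10 whose gradients in the 2 sections had intervals that do not overlap. It also had the most UMIs of the 10, which narrows its intervals. The share of all genes without such overlap was not computed, so this count cannot be set against other genes. It stood at 172, 208, 224, 231 and 219 CPM in the wild type and at 196, 226, 235, 236 and 207 CPM in the knock-in. The portal zone was higher in the knock-in (log2 ratio 0.19, 0.09 to 0.30) and the pericentral zone was not (-0.08, -0.18 to 0.02). The log2 ratio of zone 5 over zone 1 was therefore 0.35 (0.25 to 0.46) in the wild type and 0.08 (-0.02 to 0.18) in the knock-in. Thinned to 3000 UMIs per spot, these were 0.20 and 0.105. Stab2 had the same form, with 0.24 (0.06 to 0.42) in zone 1 and -0.01 (-0.15 to 0.14) in zone 5 between the sections, although there the gradients overlapped. These are differences between 2 animals, and how much animals of 1 genotype differ was not measured.

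Fcgr2b and Kdr were also lowest in zone 1 and highest in zone 4 in both sections. Kdr rose from 76.0 to 105 CPM in the wild type and from 77.6 to 107 in the knock-in between these zones, and Fcgr2b from 75.8 to 104 and from 80.2 to 106. Their log2 ratios of zone 5 over zone 1 lay between 0.18 and 0.36. Pecam1, which marks the endothelium of all vessels, was at 16.0 to 18.6 CPM in the wild type and 17.6 to 22.1 in the knock-in, with log2 ratios of -0.12 (-0.47 to 0.24) and 0.13 (-0.20 to 0.47), or -0.61 and 0.51 with every spot thinned to 3000 UMIs.

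By count, 5 of the 10 genes were past 1.5-fold higher in the pericentral zone in the wild type (Stab2, Lyve1, Rspo3, Wnt2 and Wnt9b), where 8.36% of all genes were. In the knock-in there were 4 (the same without Stab2), against 7.56%, and these 4 were past the fold in both sections, against 3.69%. Lyve1 is counted by its fold although its intervals reach below 0. Stab2 in the wild type lost the call with totals without the 20 most abundant genes (0.54), centered on the median gene (0.55) and with 3 zones (0.50), which left 4 genes there. Thinned to 3000 UMIs, 6 genes in the wild type and 3 in the knock-in were past the fold on the pericentral side. Wnt9b is among the 6 only because its zone 1 then held 0 UMIs, which gives no finite ratio. For these thinned counts the share of all genes was not computed. None was past 1.5-fold on the portal side (0 of 10 in each section, against 8.01% and 6.67% of all genes; thinned, 1 was in the wild type, Pecam1 at -0.61), and the interval lay above 0 for 8 genes in the wild type (21.2% of all genes) and 7 in the knock-in (18.6%). Zone 1 was the lowest for 8 of the 10 genes in the wild type (38.8% of all genes), for 10 in the knock-in (30.4%) and for 8 in both sections (16.7%).

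**Figure D2:**
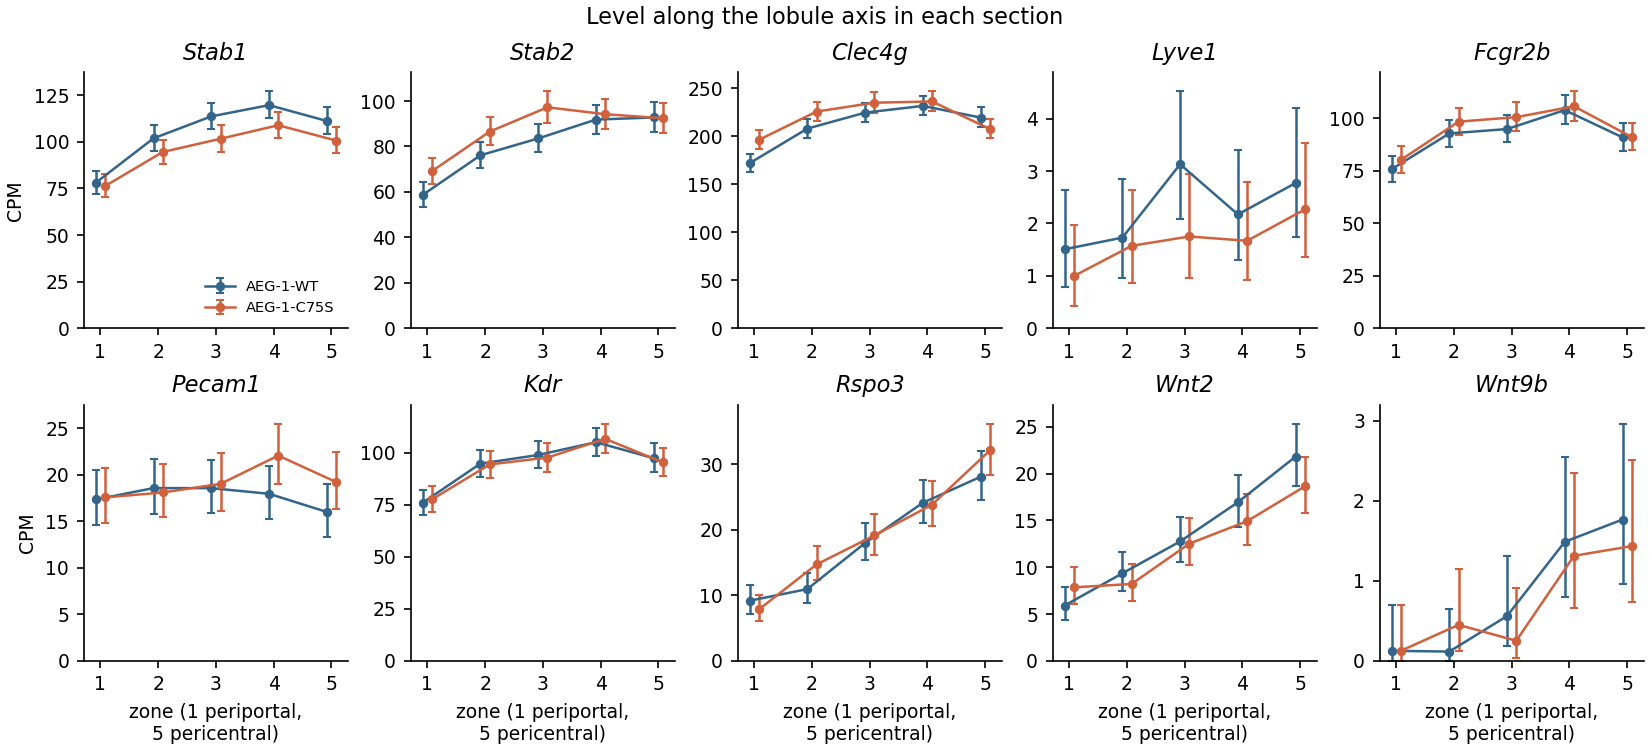
CPM of each gene in the 5 regions along the lobule axis of each section, with exact 95% Poisson intervals, each panel from 0. Rspo3, Wnt2 and Wnt9b climb toward zone 5, whereas Stab1, Clec4g, Fcgr2b and Kdr rise from zone 1 and turn down after zone 4, and Pecam1 stays between 16.0 and 22.1 CPM.

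Other genes of sinusoidal endothelium gave the same picture as the receptors. Of 27 in a list, 23 differed by less than 1.2-fold between the sections, where 28.4% of all genes were past that fold. Zone 1 was the lowest in both sections for 19 of the 27, against 16.7% of all genes. Only 1 passed 1.5-fold on the pericentral side in the wild type and 0 did in the knock-in (background 8.36% and 7.56%). The median log2 ratio of zone 5 over zone 1 was 0.23 and 0.16. Eng, a TGF-beta co-receptor, was at 0.64 (0.52 to 0.77) in the wild type and 0.51 (0.38 to 0.64) in the knock-in, and Tie1, an endothelial receptor tyrosine kinase, ran lowest on the pericentral side at -0.42 (-0.95 to 0.10) and -0.21 (-0.76 to 0.34).

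Among these 27, Bmp6, the endothelial ligand that drives hepcidin in hepatocytes, had the lowest log2 ratio between the sections. It had 702 UMIs in the wild type and 472 in the knock-in, a log2 ratio of -0.55 (-0.72 to -0.38), and was lower in the knock-in in all 5 zones, from 12.1 against 9.22 CPM in zone 1 (log2 ratio -0.39, -0.85 to 0.06) to 19.0 against 11.1 in zone 4 (-0.78, -1.16 to -0.40). Its relative Bmp2 had 2267 and 2310 UMIs (0.05, -0.04 to 0.13). Nr2f2, a transcription factor of venous endothelium, was at -0.30 (-0.46 to -0.14), and Klf2, which responds to blood flow, was higher in the knock-in, at 0.28 (0.19 to 0.37).

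A list of genes of central endothelium held the 3 signals and 6 more. All 9 passed 1.5-fold on the pericentral side in the wild type and 8 did in the knock-in, against 8.36% and 7.56% of all genes. Kit, a receptor tyrosine kinase found on pericentral sinusoidal cells, rose from 11.2 to 34.2 CPM between zone 1 and zone 5 in the wild type and from 11.8 to 32.0 in the knock-in, with log2 ratios of 1.61 (1.26 to 1.97) and 1.44 (1.09 to 1.79). Cdh13, T-cadherin, had log2 ratios of 1.75 (1.05 to 2.51) and 1.92 (1.25 to 2.65). These lie in the range of Rspo3 and Wnt2. Vwf, the von Willebrand factor of larger vessels, was the exception, at 0.61 (0.24 to 0.98) and 0.20 (-0.23 to 0.64).

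Endothelial genes of the portal side ran the other way. Of 8, 5 passed 1.5-fold on the portal side in both sections (background 3.67%) and 0 on the pericentral side. The lists of central and portal endothelium are named for a side of the lobule. They were chosen with earlier results of these data known, so their counts are descriptions and no test. Ntn4, a netrin, had log2 ratios of -0.98 (-1.34 to -0.63) and -1.02 (-1.39 to -0.66), and Efnb2, the arterial ephrin ligand, fell from 5.91 to 1.64 CPM in the wild type and from 4.24 to 2.63 in the knock-in between zone 1 and zone 5. Msr1, a scavenger receptor of macrophages too, had -0.70 (-1.02 to -0.38) and -0.61 (-0.89 to -0.33).

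**Figure D3:**
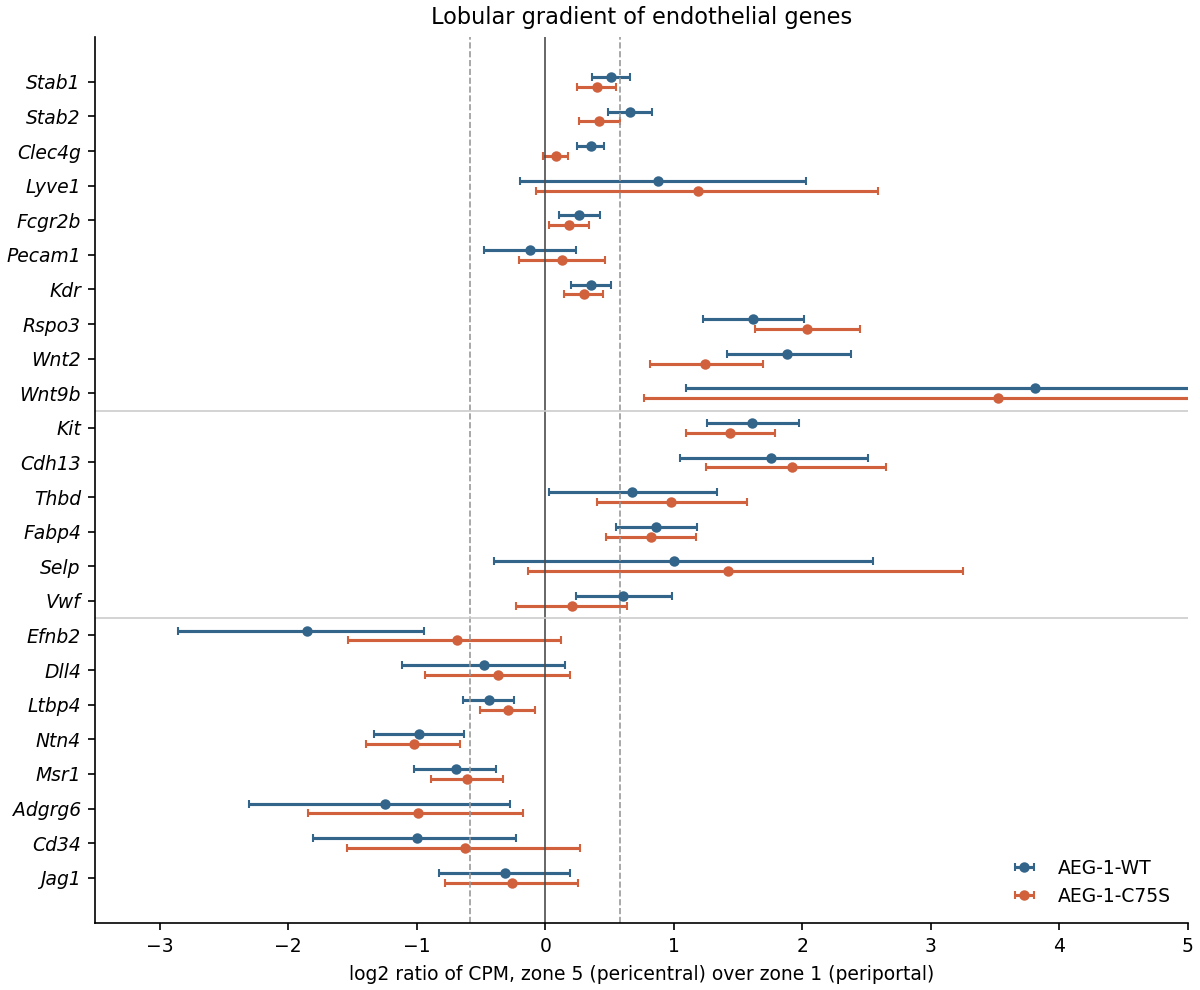
Log2 ratio of CPM in zone 5 over zone 1 for the 10 genes (top), other genes of central endothelium (middle) and genes of portal endothelium (bottom) in each section, with exact 95% intervals; dashed lines mark 1.5-fold and the intervals of Wnt9b run past the right edge. The 3 secreted signals lie with Kit and Cdh13 to the right of the dashed line, Stab1, Clec4g, Fcgr2b and Kdr between 0 and that line, and the portal genes to the left of 0.

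To set the signals against sinusoidal endothelial RNA, their UMIs were divided by those of the 7 other genes of the set (Stab1, Stab2, Clec4g, Lyve1, Fcgr2b, Pecam1 and Kdr). These are called endothelial UMIs here. Most of the 7 are sinusoidal genes that rise from zone 1 themselves. The ratio therefore cannot tell more signal per cell from more endothelium of the central vein. Rspo3 rose from 19.1 (14.97 to 24.1) to 44.6 (38.8 to 51.0) per 1000 such UMIs between zone 1 and zone 5 in the wild type and from 15.2 (11.6 to 19.4) to 52.8 (46.5 to 59.7) in the knock-in. Wnt2 rose from 12.3 (9.04 to 16.4) to 34.6 (29.5 to 40.3) and from 15.2 (11.6 to 19.4) to 30.6 (25.9 to 35.9). Per endothelial UMI in this sense, the log2 ratio of the pericentral over the portal zone was 1.22 and 1.80 for Rspo3 and 1.49 and 1.01 for Wnt2. Thinned to 3000 UMIs per spot, these were 1.63 and 1.42 for Rspo3 and 0.71 and 0.74 for Wnt2, the reverse order between knock-in and wild type for both genes. Wnt9b rose from 0.26 (0.01 to 1.46) to 2.80 (1.53 to 4.70) and from 0.24 (0.01 to 1.34) to 2.35 (1.22 to 4.12). Kit, which is no secreted signal, behaved likewise, from 23.3 to 54.2 and from 22.9 to 52.6.

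**Figure D4:**
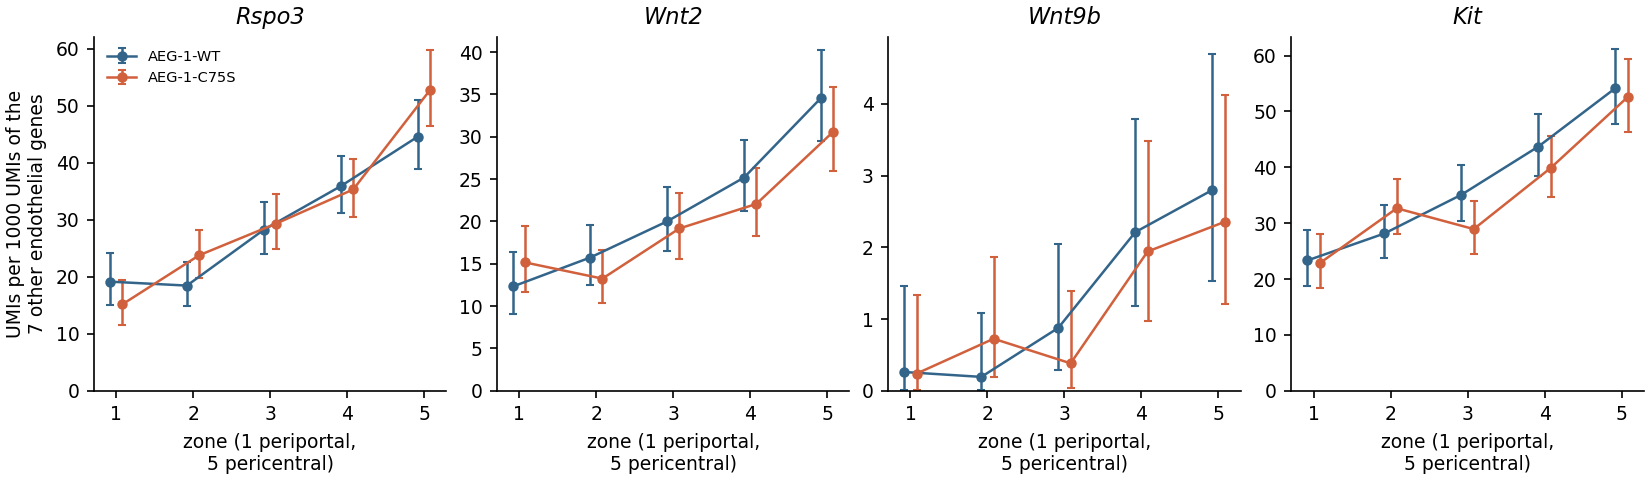
UMIs of Rspo3, Wnt2, Wnt9b and Kit per 1000 UMIs of the 7 other endothelial genes in the 5 regions of each section, with exact 95% conditional binomial intervals of the ratio. All 4 lie higher in zone 5 than in zone 1 in both sections, Rspo3 at 44.6 and 52.8 against 19.1 and 15.2.

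Whether Rspo3 and Wnt2 were counted on the same spots was read from zone 5 alone. In the wild type, 43.0% of the spots with a Wnt2 UMI also had one of Rspo3 (34.7 to 51.5%, exact binomial interval), against 31.3% of those without (26.3 to 36.8%). In the knock-in the shares were 50.8% (41.5 to 60.2%) and 37.3% (31.9 to 42.9%). Spots with Wnt2 were also deeper, with a median of 16723 against 15815 UMIs in the wild type and 21795.5 against 17390.5 in the knock-in. With every spot thinned to 3000 UMIs, the shares were 7.41% (0.91 to 24.3%) and 8.99% (6.47 to 12.1%) in the wild type and 8.33% (1.03 to 27.0%) and 9.58% (6.90 to 12.9%) in the knock-in. Thinning left 2 spots with both genes in each section, too few to show or to leave out an excess of the size seen at full depth.

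The hepatocyte genes that answer to Wnt were then compared between pericentral spots with and without a signal, a comparison added after the data had been seen. In zone 5 of the wild type, 161 spots had a Rspo3 UMI and 300 had none, and in the knock-in 177 had one and 255 had none. Slc1a2, a glutamate transporter of the innermost hepatocytes, stood at 620.3 CPM on spots with Rspo3 and 332 on those without in the wild type, and at 473 and 251 in the knock-in. The log2 ratios were 0.90 (0.806 to 0.9996) and 0.91 (0.81 to 1.02). Slc13a3, a dicarboxylate transporter, was at 0.76 (0.45 to 1.06) and 0.79 (0.48 to 1.09), and Oat, the ornithine aminotransferase, at 0.65 (0.60 to 0.69) and 0.55 (0.50 to 0.60). Axin2, the feedback inhibitor that serves as a general readout of Wnt signaling, was at 0.48 in both sections (0.07 to 0.88 and 0.05 to 0.92). Cyp1a2, Gulo, Lhpp, Lect2, Aldh3a2 and Car2 also had intervals above 0 in both sections, at log2 ratios from 0.13 to 0.57. The remaining targets did not recur in this way. Nkd1, Tbx3, Sp5, Rnf43 and Rhbg had intervals above 0 in the wild type alone, and Lgr5 in the knock-in alone. Rnf43, for example, was at 0.57 (0.06 to 1.07) and 0.09 (-0.49 to 0.68). The intervals of Tcf7 and Znrf3 reached both sides of 0 in both sections.

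Of 20 Wnt target genes of liver, 15 had an interval above 0 on the Rspo3 spots of the wild type (4.25% of all genes did) and 11 on those of the knock-in (3.28%), and 10 did in both sections (0.575%). Abundant genes have narrow intervals and pass this count more easily than the median gene. Ccnd1, the cyclin D1 gene, was the 1 target with an interval below 0, at -0.21 (-0.42 to -0.0054) in the wild type, and was at -0.15 (-0.35 to 0.04) in the knock-in. Cldn2, a tight junction gene, stood at -0.04 (-0.27 to 0.18) and -0.06 (-0.24 to 0.12). Notum, the secreted Wnt inactivating enzyme, which is not among the 20, was at -0.06 and -0.16. Cyp2e1 was at 0.12 (0.10 to 0.14) and 0.03 (0.01 to 0.05) and Cyp2f2 at 0.03 (-0.08 to 0.14) and 0.15 (0.07 to 0.23). Zone 5 was itself set by these 2 genes, and the distance of a spot to the vein was not measured. Around Wnt2 the differences of Slc1a2, Slc13a3 and Oat were smaller, and Axin2 was at -0.05 (-0.49 to 0.37) and -0.14 (-0.62 to 0.32). Slc1a2 was at 0.34 (0.24 to 0.44) and 0.26 (0.15 to 0.37) on spots with over spots without Wnt2, and of the 20 targets 3 had an interval above 0 in the wild type (2.67% of all genes), 7 in the knock-in (2.60%) and 3 in both (0.117%). Spots with a signal were deeper in this comparison too. With every spot thinned to 3000 UMIs, Slc1a2 was at 0.72 (0.37 to 1.05) and 0.61 (0.20 to 0.99) on the 41 Rspo3 spots of each section. Oat fell there to 0.45 (0.275 to 0.63) and 0.28 (0.05 to 0.49), and Cyp1a2, at 0.25 and 0.19 at full depth, to 0.11 (-0.19 to 0.40) and -0.015 (-0.34 to 0.30). Gulo did not fall, from 0.31 and 0.35 at full depth to 0.51 (0.22 to 0.78) and 0.37 (0.05 to 0.67). Slc13a3, Axin2 and the counts over the 20 targets were not computed at that depth. On the Wnt2 spots the Slc1a2 intervals reached both sides of 0, at 0.20 (-0.29 to 0.66) and -0.37 (-1.09 to 0.28).

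**Figure D5:**
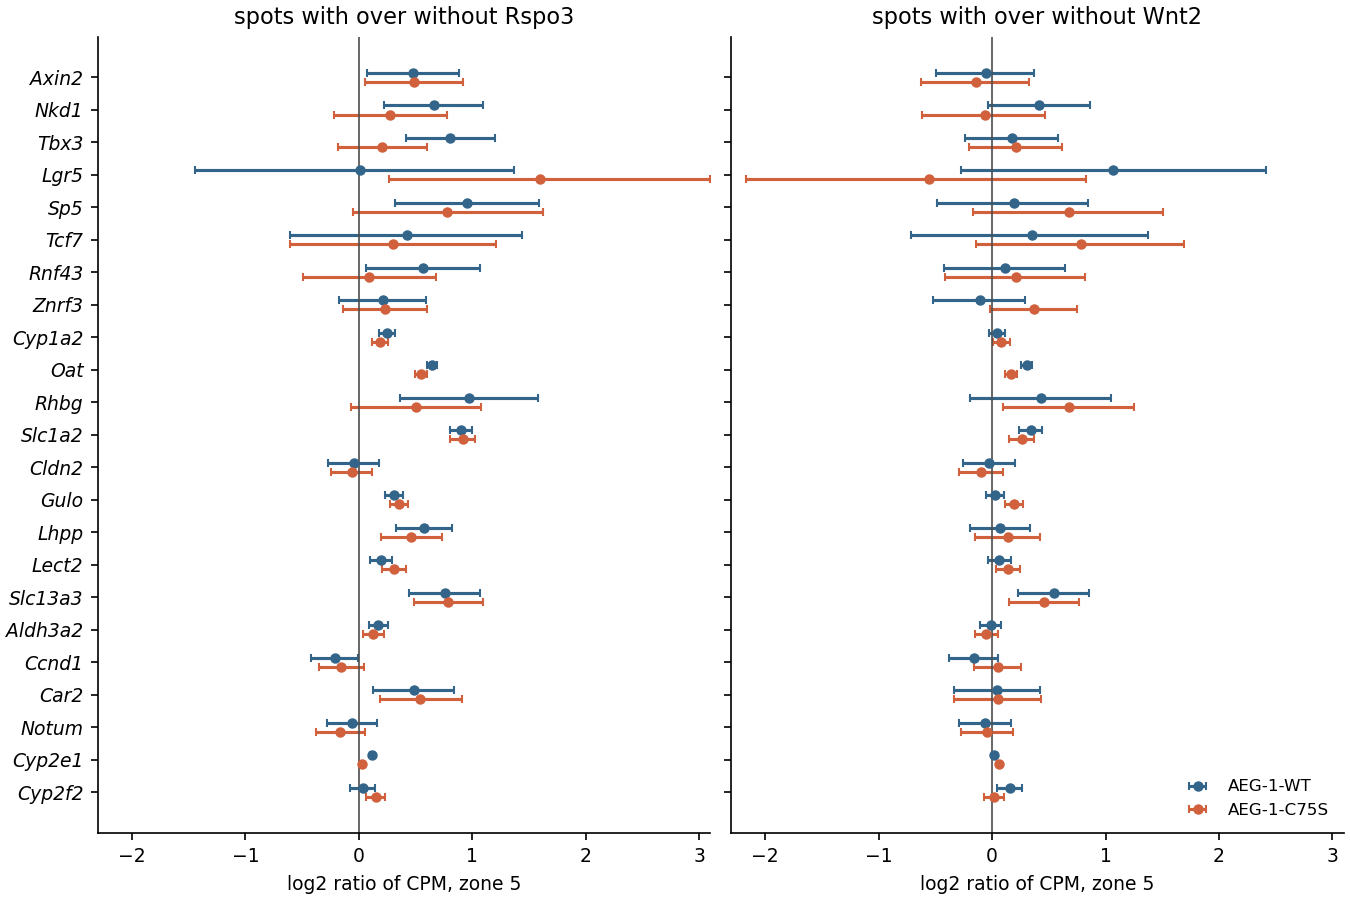
Log2 ratio of CPM on pericentral spots (zone 5) with over without a UMI of Rspo3 (left) or Wnt2 (right) for Wnt targets of liver, Notum and the axis genes, with exact 95% intervals for counting error. Slc1a2, Slc13a3 and Oat lie at 0.55 to 0.91 around Rspo3 in both sections, further from 0 than around Wnt2, while the intervals of Cldn2 and Notum reach both sides of 0 in both panels.

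The rest of the ligand family was sparse. Of 23 Wnt and R-spondin genes, 9 had no UMI in either section (Wnt1, Wnt3, Wnt3a, Wnt7a, Wnt8a, Wnt8b, Wnt11, Wnt16 and Rspo4), which allows up to 3 UMIs, or 0.071 CPM in the wild type and 0.072 in the knock-in. Besides the 3 signals, 3 others reached 50 UMIs, and all 3 were past 1.2-fold lower in the knock-in, as were 18.7% of all genes. Wnt5b had 579 and 343 UMIs (log2 ratio -0.74, -0.93 to -0.54), Wnt5a 91 and 54 (-0.73, -1.25 to -0.23) and Wnt4 189 and 140 (-0.41, -0.74 to -0.09). None of these 3 passed 1.5-fold along the lobule in both sections. Wls and Porcn, through which every Wnt is released, had log2 ratios between the sections of -0.06 (-0.21 to 0.09) and -0.17 (-0.45 to 0.11).

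Among 13 receptors with at least 50 UMIs, 3 were past 1.2-fold lower in the knock-in, 1 was higher (Lrp5, at 0.27) and 9 lay within that fold, shares near those of all genes (18.7% lower and 9.66% higher). Fzd8 had 679 and 427 UMIs (-0.65, -0.83 to -0.47), Fzd4 902 and 609 (-0.55, -0.70 to -0.40) and Ror1, a receptor for Wnt5a, 266 and 142 (-0.89, -1.19 to -0.59). Fzd8 also rose toward the central vein, by 0.80 (0.43 to 1.18) in the wild type and 0.76 (0.30 to 1.23) in the knock-in. The co-receptor Lrp6 and the R-spondin receptor Lgr4 were within 1.2-fold, at -0.08 and -0.14. Lgr5, the R-spondin receptor that marks the innermost hepatocytes, had 65 and 54 UMIs and log2 ratios of zone 5 over zone 1 of 3.46 (1.44 to 6.597) and 2.58 (1.05 to 4.57).

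The targets mostly ran with the signals along the lobule, the inhibitors less so. Of 10 inhibitors with at least 50 UMIs, 3 passed 1.5-fold on the pericentral side in both sections, against 3.69% of all genes. They were Znrf3, Rnf43 and Notum, of which Znrf3 and Rnf43 are also among the 20 targets. On the portal side 1 passed in both sections, against 3.67%. The median log2 ratio of the 10 was 0.24 in the wild type and 0.42 in the knock-in. Znrf3 had log2 ratios of zone 5 over zone 1 of 1.02 (0.70 to 1.35) in the wild type and 0.81 (0.50 to 1.12) in the knock-in, Rnf43 of 1.33 and 1.38, and Notum of 1.63 and 1.41. Of the 20 Wnt targets of liver, 19 passed 1.5-fold on the pericentral side in both sections (3.69% of all genes), Ccnd1 being the exception at 0.16 and 0.08. Cyp1a2 and Oat of this list are markers of pericentral hepatocytes, as is Cyp2e1, which set the axis. The list was also chosen with earlier results of these data known, so this count is a description and no test. Sp5, a direct Wnt target, was at 3.88 (2.70 to 5.36) and 3.37 (2.06 to 5.05). Between the sections 14 of the 20 lay within 1.2-fold, 5 were lower in the knock-in (Rnf43, Lhpp, Oat, Aldh3a2 and Sp5) and 1 was higher, which is near the share of all genes past that fold (28.4%). The interval lay below 0 for 10 of the 20 and above 0 for 1, where it left out 0 in 46.0% of all genes. Their median log2 ratio was -0.16, against -0.05 over all genes. Rnf43, with 439 and 302 UMIs, was the lowest at -0.52 (-0.74 to -0.31), and Cldn2, with 2461 and 3551, the highest at 0.55 (0.47 to 0.62).

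Markers of other cells on the same spots also differed between the sections. Of 10 Kupffer cell genes, 8 were past 1.2-fold higher in the knock-in (9.66% of all genes), and their summed level was 1422 CPM in the wild type and 1844 in the knock-in. Stab1, Fcgr2b and Mrc1 are known from macrophages as well, and the macrophage share of their UMIs was not tested. Along the lobule the Kupffer sum was at 1379 and 1696 CPM in zone 1 of the 2 sections. It was highest in zone 3, at 1581 and 2097 CPM, and lowest in zone 5, at 1192 and 1549 CPM. Of 11 stellate cell genes, 5 were higher and 1 lower (summed 674 and 834 CPM), and of 8 connective tissue genes 6 were lower in the knock-in, where 18.7% of all genes were (197 and 110 CPM), as were 4 of 5 bile duct genes (129 and 96.6 CPM) and 4 of 4 red cell genes (627 and 416 CPM). Of the lymphatic genes, 4 had at least 50 UMIs, of which 2 (Lyve1 and Mmrn1) were past 1.2-fold lower and 2 within that fold. Mmrn1 had 118 and 22 UMIs, and Pdpn, which is below that minimum, 37 and 10.

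Without the 149 spots of the wild type and 75 of the knock-in that were richest in connective tissue and bile duct genes, 1 of the 10 genes was again past 1.2-fold between the sections, Lyve1 at -0.39, and Rspo3 and Wnt2 were at 0.13 and -0.11. There Wnt5b was at -0.68, Fzd4 at -0.51, Fzd8 at -0.67, Ror1 at -0.76 and Bmp6 at -0.53, close to their values over all spots. Vwf moved from -0.46 (-0.64 to -0.28) to -0.23 (-0.43 to -0.04) and Cd34, a gene of portal vessels, from -0.79 to -0.16. Wnt5a moved from -0.73 to -0.38. On the remaining spots Mmrn1 had 33 UMIs in the wild type and 18 in the knock-in, and Pdpn 13 and 8. Sfrp1, a secreted Wnt inhibitor, had 148 UMIs in the wild type and 18 in the knock-in and moved from -3.02 to -1.47. The part of Kupffer, stellate and red cells in these differences was not tested.

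The genes whose levels followed each signal most closely were sought along the same axis. Over 20 bins per section (40 points, correlated as a description only, since bins share the axis, the library and the depth) and 6887 genes with at least 1000 UMIs, Rspo3 was most like Pon1, Mup11 and Gulo (Pearson r of 0.94 each), and Wnt2 most like Cebpb (0.92), Cyp2c54 (0.92) and Hsd3b7 (0.90). Wnt9b, with 64 UMIs in all, reached 0.75 with Gstt1. The sum of the 5 scavenger and lectin receptors was most like Ecm1 (0.93), the water channel gene Aqp1 (0.93) and Ttr (0.92).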

How the data were processed

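Liver sections of 1 AEG-1-WT and 1 AEG-1-C75S mouse were measured by 10x Visium on formalin-fixed tissue. The authors deposited raw counts of UMIs per spot and gene, made with Space Ranger 2.0.1 on mm10 and the mouse probe set, and the submitters' notes also name Seurat 4.3.0. From these counts, spots over 50000 UMIs were left out (7 and 4), and UMIs were summed per section and per zone of the axis. CPM, exact Poisson intervals, exact conditional binomial intervals of log2 ratios and Clopper-Pearson intervals of shares were computed in Python 3.11.15 with scipy 1.17.1, and tested on simulated data. UMIs are not independent of cell makeup, and with 1 section per genotype no test between genotypes was made. The share of all genes past a fold was taken over genes with at least 50 UMIs. Named genes are the 10 members, list genes with the largest and smallest ratios among those with at least 100 UMIs in each section, list genes with no UMI and the 3 most alike genes per signal, and genes named beyond these were chosen after their values were seen. The members and lists were chosen with earlier results of these data known. Alternatives were other spot filters, weights, denominators (among them TMM of edgeR 4.0.16), depths, regions, axes and folds, and the genes on spots with and without a signal, and list genes without the spots rich in connective tissue and duct genes, were added after the data were seen. Spot positions and images were not used here.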

Additional observations from a re-analysis of the deposited data

Results flagged for a closer look

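Pecam1 ran in opposite directions along the lobule, with a log2 ratio of zone 5 over zone 1 of -0.12 in the wild type and 0.13 in the knock-in, a difference of 0.25. Thinned to 3000 UMIs per spot, the values were -0.61 and 0.51. Each section is 1 sample, both intervals reach 0, and the difference was not tested.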

How the results depend on the processing

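No paired analysis was possible because each genotype has 1 section, and for the same reason no replicate could be left out. Of the counts and values that answer a comparison, 51 kept their direction and stayed within the spread or within 1.5 times the count under an alternative, 8 moved further and 2 reversed. With every spot thinned to 3000 UMIs, 3 genes were past 1.2-fold between the sections in place of 1, 23 in place of 11 summed over the zones, and the log2 ratio per endothelial UMI in the wild type became 1.63 for Rspo3 and 0.71 for Wnt2, against 1.42 and 0.74 in the knock-in. The excess of Rspo3 on Wnt2 spots reversed to -1.58 percentage points in the wild type and -1.25 in the knock-in, from 11.6 and 13.6. Clec4g between the sections reversed to -0.022. On Rspo3 spots of the knock-in, Cyp2e1 reversed to -0.024 and Cyp1a2 to -0.015, and on its Wnt2 spots Slc1a2 reversed to -0.37, Oat to -0.26, Gulo to -0.18 and Cyp1a2 to -0.064. Thinning leaves few UMIs of each gene, and the cause of these shifts was not tested. Thinned values by zone and per endothelial UMI used zones set anew from the thinned counts of Cyp2f2 and Cyp2e1. Thinned comparisons of spots with and without a signal kept the zones of full depth. No share of all genes past a fold was computed at that depth. At 1.5-fold, 0 genes differed between the sections. At 1.2-fold, 9 genes in the wild type and 7 in the knock-in passed along the lobule in place of 5 and 4. For these changed folds, no share of all genes was computed. With 3 zones in place of 5, Rspo3 per endothelial UMI in the knock-in was 1.31 in place of 1.80. Over the alternatives that gave a value, the log2 ratio along the lobule stayed between 1.40 and 1.98 in the wild type and 1.51 and 2.50 in the knock-in for Rspo3, and between 1.05 and 2.28 and between 0.94 and 1.53 for Wnt2. Wnt9b gave no finite ratio when thinned or with 10 zones in either section, or on the other axis in the wild type. Nor did Lyve1 with 10 zones in the knock-in, in each case because an end zone held 0 UMIs.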

Other observations

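The spots left out for their depth also held the members. In the knock-in, 4 such spots had 9 UMIs of Rspo3, 41.2 CPM (18.9 to 78.3), against 19.6 CPM (18.3 to 21.0) on the spots kept. In the wild type, 7 such spots had 7 UMIs of Rspo3, 18.8 CPM (7.57 to 38.8), against 18.1 CPM.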
